A study of Homo sapiens with 4 samples.

Results

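The high mobility group (HMG) genes encode small, abundant nuclear proteins that bind DNA or nucleosomes without sequence-specific recognition and change how chromatin is folded. The 10 genes described here, HMGA1, HMGA2, HMGB1, HMGB2, HMGB3, HMGN1, HMGN2, HMGN3, HMGN4 and HMGN5, were taken by gene name from a table of 60675 gene rows, and each matched 1 row. The table came from HT1080, a line grown from a human fibrosarcoma, in which KDAC8 (the product of HDAC8, a lysine deacetylase that acts on cohesin) had been knocked out. All 4 libraries carry that genotype, so there is 1 group with 4 replicates and no comparison with cells that keep KDAC8. The labels do not say whether the line is 1 clone or whether the replicates were separate cultures, so every spread given here is between these libraries and may be technical. RNA was total RNA with ribosomal RNA removed, and the libraries held 39454210 to 45828807 counts. Levels are counts per 1000000 (CPM) after scaling to effective library sizes, given as mean ± SD over the 4 libraries.

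The targeted gene, HDAC8, had 1.98, 2.11, 2.10 and 2.53 CPM in replicates 1 to 4 (mean 2.18 ± 0.242), and no value here tells edited from intact transcripts. Of 7 mesenchymal markers, 5 reached 1 CPM in every library, led by VIM at 4701 ± 283 CPM, while S100A4 (0.449 ± 0.143) and THY1 (0.178 ± 0.119) did not. Of 7 epithelial markers 3 reached it: KRT8 (230 ± 21.5 CPM), KRT18 (159 ± 11.7) and CLDN4 (2.49 ± 0.438). EPCAM, CDH1 and KRT5 were listed at 0 in every library. Of 4 neural markers 2 reached 1 CPM in every library, TUBB3 (127 ± 15.7 CPM) and MAP2 (2.80 ± 0.303). None did of 4 haematopoietic, 4 endothelial and 3 muscle markers. In a bulk library, fewer cells that express a gene and less of its RNA per cell cannot be told apart. In each pair of libraries 4175 to 7728 genes differed beyond counting noise, of 16514 to 17114 tested. No library was thus a copy of another and all 4 were kept, which does not show that they were separate cultures.

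The family has 3 branches. HMGA proteins carry short AT-hook motifs that lie in the minor groove of AT-rich DNA, and are best known from embryonic and tumour cells, HMGA2 being held down by let-7 microRNAs in most adult tissue. HMGB proteins carry paired HMG boxes that bend DNA, followed by an acidic tail. HMGN proteins bind the nucleosome itself and counteract its compaction by linker histone H1.

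All 10 genes were read at 1 CPM or more in every library. In CPM, which scales with transcript length as well as with transcript number, HMGA1 took most, at 1498 ± 171 CPM. HMGA2, HMGB1, HMGN2 and HMGB2 followed between 404 ± 21.4 and 216 ± 15.8 CPM. HMGN1, HMGN4 and HMGB3 lay between 101 ± 7.34 and 32.9 ± 0.830 CPM, and HMGN3 (5.48 ± 0.791) and HMGN5 (1.52 ± 0.206) were low. The median of the 10 was 159 CPM, against 27.6 CPM over the 12984 genes that reached 1 CPM in every library. Together the 10 genes took 2931 ± 206 CPM. The HMGA pair held 64.9% of that sum, the HMGB genes 20.5% and the HMGN genes 14.6%. Summed per kilobase of joined exons, the HMGN genes (17.8%) stood above the HMGB genes (13.5%), with the HMGA pair at 68.7%.

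**Figure D1:**
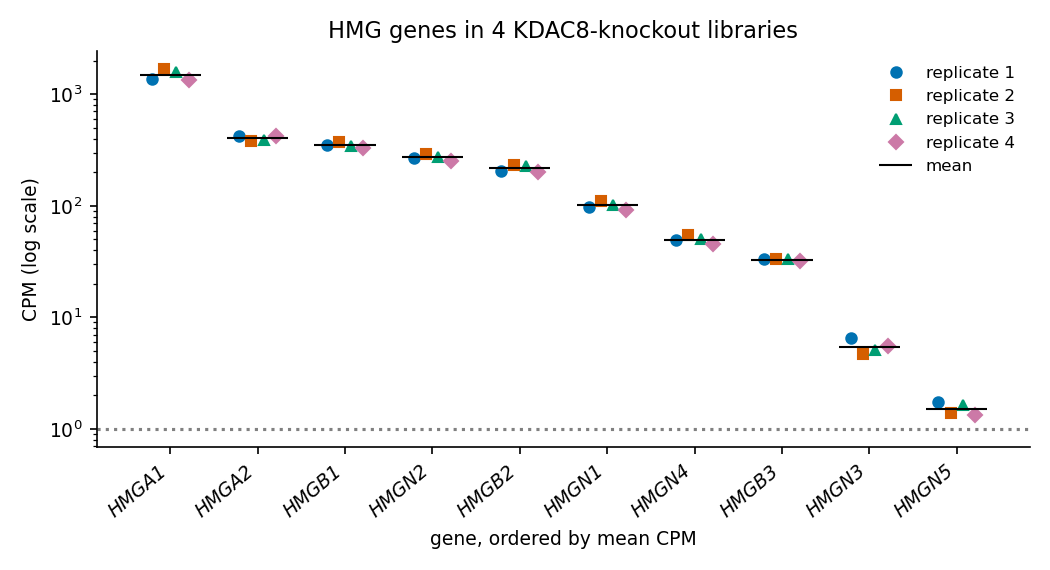
CPM of the 10 HMG genes (horizontal axis, ordered by mean) on a log axis, one symbol per replicate library and a bar at the mean of 4. HMGA1 lies near 1498 CPM and HMGN5 at 1.52 CPM, just above the dotted line at 1 CPM.

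HMGA1 (ENSG00000137309; chromosome 6, 34236873 to 34246231, forward strand, GRCh38) encodes the AT-hook protein with the highest RNA level of the family. It had 1373, 1690.4, 1593 and 1335 CPM in replicates 1 to 4. Replicates 2 and 3 were the high libraries and replicates 1 and 4 the low ones, a range of 1.27 times. Among all rows HMGA1 ranked 43 by mean CPM. It made up 48.9%, 53.3%, 52.7% and 49.1% of the summed CPM of the 10 genes, more in the libraries where its own level was high. That sum includes HMGA1 itself, so its share and its level are not independent.

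HMGA2 (ENSG00000149948; chromosome 12, 65824131 to 65966295, forward strand) encodes the second AT-hook protein. It had 423, 382, 389 and 422 CPM, with the high and low libraries exchanged relative to HMGA1: replicates 1 and 4 were high, 2 and 3 low. In plain CPM, HMGA2 was above 97.6% of the genes read at 1 CPM or more. Counts favour long transcripts, so genes are compared with each other per kilobase of exon. On that scale, with all annotated exons of a gene joined, HMGA1 had 644 ± 73.7 and HMGA2 26.2 ± 1.39 CPM per kilobase. HMGA2 was then above 89.1% of the genes read. The log2 ratio of HMGA1 to HMGA2 per kilobase was 4.42, 4.87, 4.76 and 4.39, a mean of 4.61 ± 0.24, so HMGA1 was 24.4-fold higher and led in 4 of 4 libraries. A two-sided exact permutation test that flips the sign of each library's ratio gave p = 0.13, also after adjustment over the 45 pairs of HMG genes. That is the smallest p that 4 libraries allow, and each pair named below with 1 order in 4 of 4 libraries has it.

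The size of that gap depends on which length is used. The joined exons of HMGA2 come to 15403 bases, joined over 11 annotated transcripts, against 2327 bases for HMGA1. With the longest coding transcript (8094 and 2159 bases) the log2 ratio of HMGA2 to HMGA1, -4.61 with joined exons, was -3.79, with coding length -2.34 and in plain CPM -1.88. HMGA2 was lower under each of these.

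The let-7 sites of HMGA2 are the best-known feature of its messenger RNA. In the annotation used, the matches searched for here lie in one of its transcript forms. The let-7 family shares the seed printed here in capitals (bases 2 to 8, from RefSeq), and all 9 mature members found, miR-98 included, carry the same one. A match to it, CTACCTC, was searched on the sense strand of the 3′ UTRs of GENCODE 29 coding transcripts. Shorter or imperfect matches were not searched, so the counts below may not cover every let-7 site. The first lines are 2 of the microRNAs, and the next are the 4 matches in transcript HMGA2-204 with the bases before them, match in capitals, followed by the single match in HMGA1-201.
let-7a: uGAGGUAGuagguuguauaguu
miR-98: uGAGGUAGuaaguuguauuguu
HMGA2 chr12:65963298-65963320: gccaacgttcgatttCTACCTCa
HMGA2 chr12:65964533-65964555: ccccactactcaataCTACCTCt
HMGA2 chr12:65964945-65964967: ttgacttgcaaagacCTACCTCc
HMGA2 chr12:65965798-65965820: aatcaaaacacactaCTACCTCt
HMGA1 chr6:34245829-34245851: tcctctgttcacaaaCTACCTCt

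HMGA2-204 has a 3′ UTR of 3003 bases with 4 matches. The other 6 coding transcripts of HMGA2, with 3′ UTRs of 106 to 7421 bases, have 0. Each gene was counted by its coding transcript with the most matches, which also gave its 3′ UTR length. On that count a match was present in 10.6% of 18989 genes. It was present in 15.3% of the 2381 genes with a 3′ UTR of 0.8 to 1.25 times the HMGA2-204 length. Of these 2381 genes, 2 held 4 or more, HMGA2 included. Only 13 genes in all, HMGA2 included, held 4 or more. The 8 HMGB and HMGN genes held none. A match is a description of the letters and not evidence of binding, and the deposited gene counts do not separate HMGA2-204 from the other forms.

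The RNA-binding and processing genes that act around let-7 and HMGA2 were mostly read. In a list of such genes 10 of 11 genes reached 1 CPM in every library. IGF2BP2, a messenger RNA-binding protein and known target of HMGA2, took most in CPM, at 385 ± 16.6 CPM, with IGF2BP3 at 86.9 ± 4.40 and IGF2BP1 at 65.2 ± 2.04 CPM. AGO1, which carries microRNAs to their targets, was next at 147 ± 5.71 CPM, followed by AGO2 at 121 ± 9.68 CPM. DROSHA (107 ± 4.43) and DICER1 (87.8 ± 6.56), which cut microRNA precursors, followed in CPM. LIN28B, which blocks let-7 maturation, stood at 4.53 ± 0.423 CPM, with 4.85, 4.27, 4.06 and 4.92 CPM in replicates 1 to 4. Its paralog LIN28A had 0.130 ± 0.0573 CPM. The host transcript of let-7a-3 and let-7b, MIRLET7BHG, had 8.07 ± 0.616 CPM. The 12 annotated let-7 and miR-98 hairpin rows were listed at 0 in every library, which allows up to 0.0662 to 0.0742 CPM each (3 counts, counting error only). A library of long RNA does not measure mature microRNAs.

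Genes that overlap HMGA2 on the opposite strand differed more between libraries than HMGA2 did. HMGA2-AS1 (ENSG00000197301, listed under a clone name and matched by identifier) had 13.4, 13.8, 13.2 and 36.5 CPM, so replicate 4 stood 2.77 times above the lowest library while HMGA2 in replicate 4 was at 422 CPM, level with replicate 1. The departure from equal CPM had an adjusted p of 5.88e-189 in the chi-square test described below. HMGA2-AS1 and HMGA2 share 384 exonic bases, and the strand setting of the counting is not given in the sources used here, so reads of the shared bases cannot be assigned with certainty. RPSAP52, which overlaps the start of HMGA2 without shared exonic bases, had 9.28, 8.83, 10.2 and 11.2 CPM. A further antisense row, ENSG00000256083, had 5, 6, 5 and 21 counts, too few for the chi-square test. Replicate 4 was the highest library for all 3 of these rows. It was also highest for RBM22P2, a same-strand pseudogene row within HMGB1, at 0.372, 0.458, 0.591 and 0.989 CPM. For HMGN3-AS1, opposite HMGN3, replicate 4 was the lowest library, at 1.32 CPM. How often replicate 4 was highest over all rows was not counted.

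**Figure D2:**
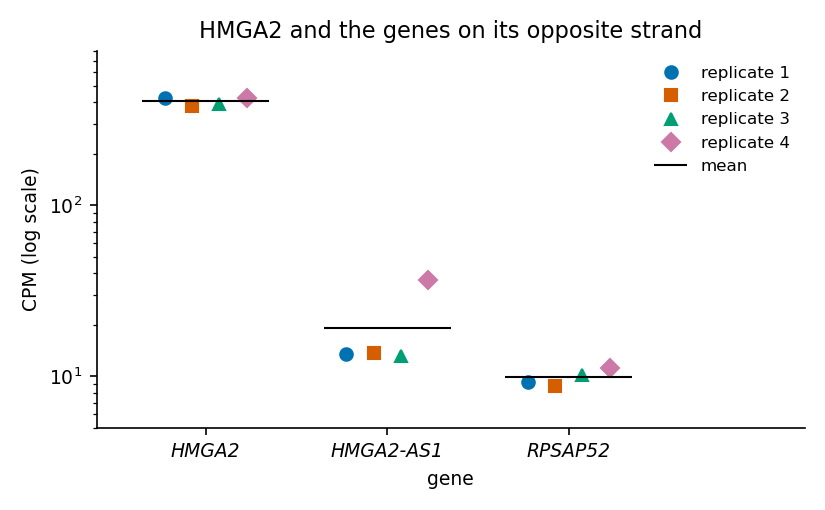
CPM on a log axis of HMGA2 and of the opposite-strand genes HMGA2-AS1 and RPSAP52, one symbol per replicate library and a bar at the mean of 4. The HMGA2-AS1 value of 36.5 CPM in replicate 4 stands apart from 13.2 to 13.8 CPM in the other libraries, while the 4 values of HMGA2 lie between 382 and 423 CPM.

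Among the DNA-bending HMGB genes, HMGB1 led in CPM and HMGB2 led per kilobase. HMGB1 (ENSG00000189403; chromosome 13, 30456704 to 30617597, reverse strand), which also acts outside cells as an alarm signal, had 349.7, 373, 346 and 333 CPM. HMGB2 (ENSG00000164104; chromosome 4, 173331695 to 173335125, reverse strand), the paralog linked to dividing cells, had 206, 233, 227 and 200.4 CPM. HMGB1 was the higher in each library, and the groups of values did not overlap. Per kilobase of exon HMGB2 had 78.0 ± 5.68 and HMGB1 45.4 ± 2.17 CPM, a log2 ratio of HMGB1 to HMGB2 of -0.78 ± 0.07 with the same order in 4 of 4 libraries. The order turns with the length used: it was 0.66 with coding length and 0.70 in plain CPM, since the HMGB1 exons join to 7723 bases and those of HMGB2 to 2775.

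HMGB3 (ENSG00000029993; chromosome X, 150980509 to 150990775, forward strand), known from blood stem cells, was the lowest of the branch. It had 33.2, 33.5, 33.3 and 31.7 CPM, and the libraries were nearly level. Per kilobase it stood at 8.30 ± 0.209 CPM, a log2 ratio of HMGB2 to HMGB3 of 3.23 ± 0.08, or 9.38-fold higher for HMGB2 in 4 of 4 libraries. The coding sequences of the 3 paralogs are 73.3% to 77.7% identical over aligned bases. HMGB4, the germ-cell paralog outside the 10 genes, was listed at 0 in every library.

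In CPM, the nucleosome-binding HMGN genes fell into a higher trio and a lower pair. HMGN2 (ENSG00000198830; chromosome 1, 26472450 to 26475972, forward strand) had 269.9, 291, 275 and 251 CPM. HMGN1 (ENSG00000205581; chromosome 21, 39342315 to 39349647, reverse strand) had 98.4, 110.1, 102 and 92.6 CPM. HMGN4 (ENSG00000182952; chromosome 6, 26538405 to 26546254, forward strand) had 48.9, 54.2, 50.2 and 45.3 CPM. In each of the trio replicate 2 was the highest library and replicate 4 the lowest.

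HMGN4 arose as a reverse-transcribed copy of HMGN2, and the pair shows how much sequence 2 counted genes can share. Both coding sequences run to 273 bases from start to stop codon, and they are printed here with the 37 differing bases in capitals (GENCODE 29, GRCh38, 5′ to 3′). That of HMGN2 lies in 6 exons within chr1:26472613-26475148 and that of HMGN4 in 1 exon at chr6:26545207-26545479, both on the forward strand.
HMGN2: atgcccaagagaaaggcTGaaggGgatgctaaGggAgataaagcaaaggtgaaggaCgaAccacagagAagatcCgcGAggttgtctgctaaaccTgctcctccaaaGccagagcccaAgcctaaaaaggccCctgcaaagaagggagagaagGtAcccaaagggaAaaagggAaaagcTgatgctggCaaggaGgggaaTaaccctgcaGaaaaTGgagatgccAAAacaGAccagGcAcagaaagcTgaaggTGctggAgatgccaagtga
HMGN4: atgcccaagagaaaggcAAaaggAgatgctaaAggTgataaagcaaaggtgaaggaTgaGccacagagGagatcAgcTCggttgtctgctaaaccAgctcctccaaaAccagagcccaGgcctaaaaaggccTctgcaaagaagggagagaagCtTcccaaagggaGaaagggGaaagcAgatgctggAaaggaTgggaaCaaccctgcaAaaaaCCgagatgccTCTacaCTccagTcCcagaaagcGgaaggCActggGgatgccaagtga

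The coding sequences were 86.4% identical, the highest value of the 14 within-family pairs. The differences are spread along the sequence, and no stretch of 50 bases of any HMGN4 transcript occurred in a transcript of another gene. Per kilobase of exon HMGN2 had 108 ± 6.71 and HMGN4 39.0 ± 2.87 CPM, a log2 ratio of 1.48 ± 0.02, or 2.78-fold higher for the parent gene in 4 of 4 libraries. That ratio was 2.49 with the longest coding transcript and 2.45 both with coding length and in plain CPM. HMGN1 had 19.8 ± 1.44 CPM per kilobase, a log2 ratio to HMGN2 of -2.45 ± 0.02 with the same order in 4 of 4. Joined exons of HMGN1 come to 5102 bases over 20 transcripts, against 1383 for its longest coding one, with which the ratio was -1.65.

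The trio kept nearly fixed proportions. Per kilobase of joined exons the log2 ratio of HMGN1 to HMGN4 was -0.99, -0.98, -0.98 and -0.97, with an SD of 0.00883 that was the smallest of the 45 pairs of HMG genes. The HMGN2 to HMGN4 (0.0184) and HMGN1 to HMGN2 (0.0213) ratios had the next smallest SDs. Counting error alone would give an SD of 0.0385, 0.0343 and 0.0259 for these pairs, so none of the 3 ratios varied more than counting does. By contrast the HMGA1 to HMGA2 ratio had an SD of 0.24 where counting would give 0.0124. The SD does not depend on the length used, but the sign does: HMGN1 was the higher in 4 of 4 libraries in plain CPM (1.02) and with coding length (0.66), and with the longest coding transcript it had 72.9 against 40.5 CPM per kilobase. These pairs were picked after their values were seen.

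HMGN3 (ENSG00000118418; chromosome 6, 79201245 to 79234738, reverse strand), which binds the thyroid hormone receptor, had 6.55, 4.70, 5.14 and 5.51 CPM. Replicate 1 was highest and replicate 2 lowest, whereas replicate 2 was highest for the trio. HMGN3-AS1, which shares 193 exonic bases with it on the opposite strand, had 1.48 ± 0.116 CPM. HMGN5 (ENSG00000198157; chromosome X, 81113701 to 81201942, reverse strand), the longest HMGN protein, had 71, 58, 74 and 56 counts, or 1.76, 1.38, 1.63 and 1.32 CPM. The exact Poisson 95% interval in replicate 4 was 1.001 to 1.72 CPM (counting error only), so the lowest library lies close to the 1 CPM threshold. Per kilobase HMGN3 had 5.40 ± 0.780 CPM, near the 5.56 CPM median of genes read, and HMGN5 0.630 ± 0.0852 CPM.

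The 10 genes kept one order in all 4 libraries. Per kilobase of exon it ran HMGA1, HMGN2, HMGB2, HMGB1, HMGN4, HMGA2, HMGN1, HMGB3, HMGN3 and HMGN5. All 45 pairs had the same sign in every library, and with 4 libraries no pair can pass a threshold of 0.05 in the exact permutation test. The closest neighbours were HMGB1 over HMGN4 (log2 ratio 0.22 ± 0.05), HMGA2 over HMGN1 (0.41 ± 0.18) and HMGN2 over HMGB2 (0.47 ± 0.05), each larger than its SD. Other lengths reordered the middle of the list. The mean ratio changed sign in 4 pairs with the longest coding transcript, in 5 with coding length and in 7 in plain CPM, while HMGA1 stayed first and HMGB3, HMGN3 and HMGN5 last under all 4. With coding length the HMGN2 to HMGA2 ratio was 0.13 ± 0.16, with HMGN2 higher in 3 of 4 libraries, so that pair did not differ beyond its spread.

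**Figure D3:**
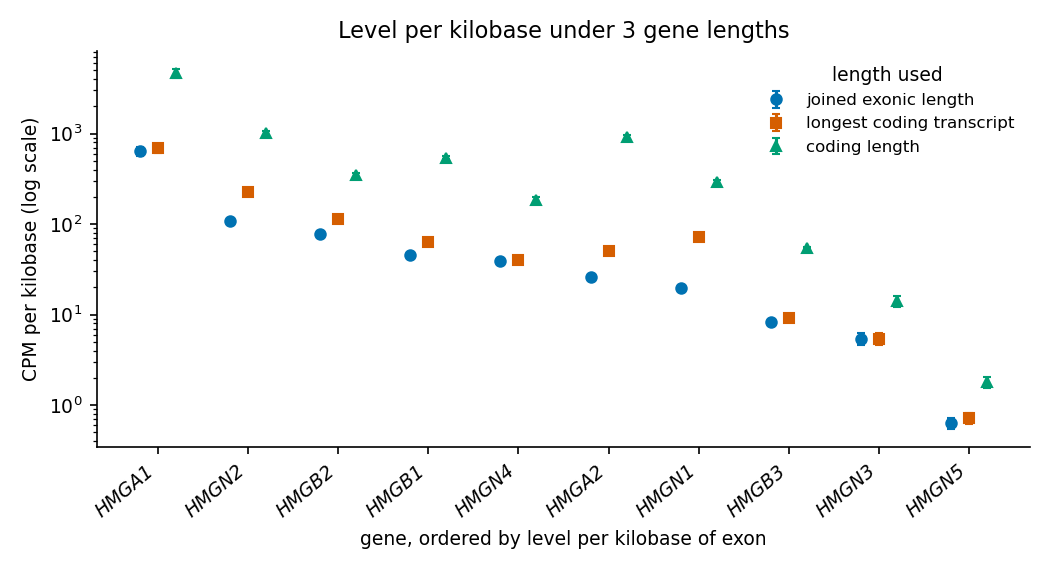
Mean CPM per kilobase (log axis, bars are SD over 4 libraries) of each HMG gene with the joined exonic length, the longest coding transcript or the coding length as divisor. HMGA1 is highest and HMGN5 lowest with each divisor, and HMGA2 moves from 26.2 to 917 CPM per kilobase.

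Variation between the libraries was small in size, as it was for most genes. The highest library exceeded the lowest by less than 1.4 times in all 10 genes. Of all genes at 10 CPM or more, 1.75% had a range of 1.5 times or more. The median SD of log2 CPM was 0.105 for the HMG genes and 0.0916 for genes at 10 CPM or more. Of the 10 HMG genes, 6 lay above the latter. The test asked whether counts departed from proportionality to effective library size (chi-square test of homogeneity, Benjamini-Hochberg adjusted over 16790 genes). All 10 genes had enough counts to be tested, and 8 varied (80%), against 59.2% of all genes tested. Among genes whose mean reached 10 CPM, 7 of the 8 HMG genes varied (87.5%) and 77.7% of all 9480 did, so most genes with such counts passed the test. HMGA1 had the largest chi-square, 2479 on 3 degrees of freedom, a measure that grows with counts, and an SD of log2 CPM of 0.16. HMGN3 and HMGN5, the members with the fewest counts, had larger SDs, 0.20 and 0.19. The SD of HMGA1 was exceeded by 11.2% of the genes at 10 CPM or more, whose median was 0.09. HMGB2 (adjusted p = 4.1e-30), HMGA2 (1.2e-29) and HMGN2 (3.6e-27) had the next lowest adjusted p. HMGB3 (adjusted p = 0.51) and HMGN5 (0.388) did not pass. HMGB3 had an SD of 0.04, and 94.2% of the genes at 10 CPM or more had a larger one. HMGN3 passed with an adjusted p of 0.00591 over the 4 libraries, and without replicate 1 its adjusted p was 0.348.

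The direction of the differences was not the same in all 10 genes. HMGA1, HMGB1, HMGB2, HMGB3, HMGN1, HMGN2 and HMGN4, 7 of the 10, were highest in replicate 2 and lowest in replicate 4. HMGA2 and HMGN3 were highest in replicate 1 and lowest in replicate 2. HMGN5 was highest in replicate 1 and lowest in replicate 4. HMGB3 and HMGN5 did not pass the chi-square test. Over all genes, replicates 2 and 4 were the pair with most differences, in 7728 of 16956 genes tested. The share of all genes highest in replicate 2 and lowest in replicate 4 was not counted. Base composition moved with library over all genes: among 9205 coding genes at 10 CPM or more, Spearman's rho between GC content and the deviation from the gene's mean was -0.78, 0.30, 0.64 and -0.05 in replicates 1 to 4. With transcript length it was 0.39, -0.60, -0.26 and 0.53. These are descriptions across genes, which share a library and are not independent. The 1225 genes of 60% GC or more had median log2 deviations of -0.12, 0.11, 0.07 and -0.05. HMGA1, with 61.3% GC in its longest coding transcript, had -0.12, 0.18, 0.10 and -0.16. The 1573 genes under 40% GC had medians of 0.09, 0.00, -0.05 and -0.04, and HMGA2, with 38.8% GC, had 0.07, -0.08, -0.05 and 0.06. HMGB1, with 37.9% GC, had -0.001, 0.09, -0.02 and -0.07, highest in replicate 2, unlike these medians. HMGN5, with 33.8% GC but under 10 CPM, had 0.22, -0.14, 0.11 and -0.19. The part of base composition and length in the shifts of the HMG genes was not tested.

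**Figure D4:**
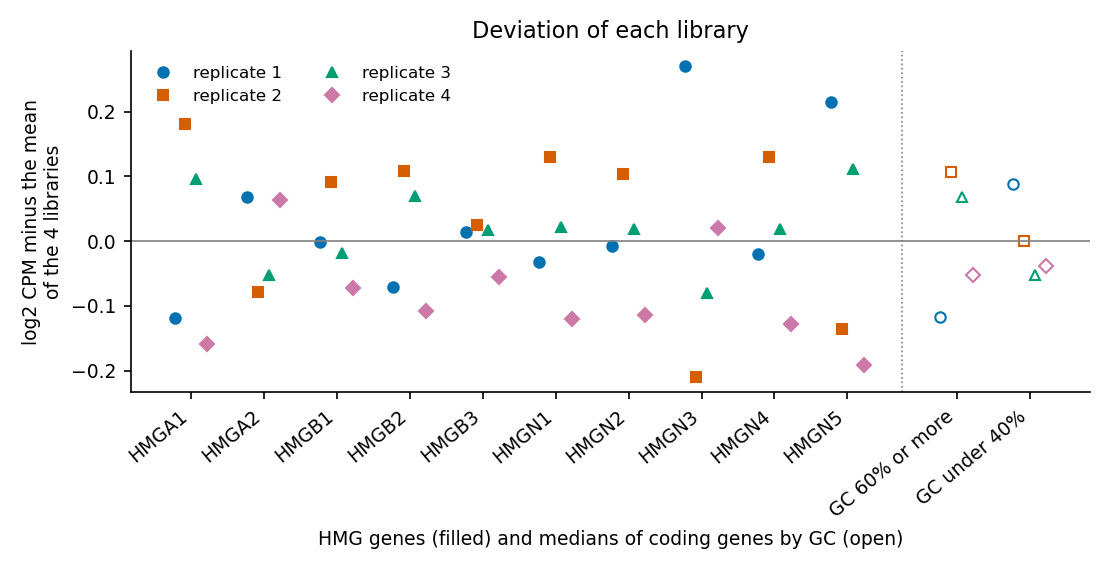
Log2 CPM minus the mean of the 4 libraries for each HMG gene (filled symbols) and the medians of coding genes with 60% GC or more and under 40% GC (open symbols), one symbol per replicate library. HMGA1 is high in replicates 2 and 3, as are the GC-rich genes, and HMGA2 is high in replicates 1 and 4.

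HMG genes have left many pseudogenes, processed copies that can draw reads from the parent. The table held 147 rows named as pseudogenes of the 10 genes, of which 57 had any count. Their counts came to 0.320% ± 0.0269 of those of the 10 genes. HMGB1 had 42 such rows, HMGN2 36, HMGN1 30, HMGB3 29 and HMGA1 8. HMGB1P5 alone was read at 1 CPM or more in every library, with 4.07, 4.04, 3.77 and 3.54 CPM. It was followed by HMGN2P4 (1.12 ± 0.304), HMGN2P17 (0.766 ± 0.205), HMGB1P37 (0.547 ± 0.160) and HMGB1P3 (0.415 ± 0.225). By parent the share was largest for HMGB3 (1.89% ± 0.643) and HMGB1 (1.76% ± 0.0998), followed by HMGN2 at 0.755% ± 0.167.

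The overlap in sequence was counted directly. Of all distinct stretches of 150 bases, 1 read of the labelled PE150 platform, in the annotated transcripts of each gene, 2.54% of those of HMGB1 and 2.29% of those of HMGN2 occurred unchanged in a transcript of another gene. The other 8 genes had 0. At 50 bases the shares were 13.9% for HMGN2, 10.7% for HMGB1, 7.59% for HMGA1, 4.20% for HMGN1 and 3.43% for HMGB3, and under 1% for the other 5. At 50 bases HMGB1 shared most with HMGB1P5, and at 150 bases with HMGB1P6. No row carried the name HMGB1P6, so any reads of it are outside the 147 rows and the shares given above. HMGN2 shared most with HMGN2P5 at both lengths, a row listed at 0 in every library. Where the counting split such reads, the counts of the 5 genes listed with shares at 50 bases are uncertain. Stretches were compared in the sense orientation only. The exonic bases that HMGA2 (384) and HMGN3 (193) share with opposite-strand genes are therefore not in these shares. With the strand setting not given, counts of HMGA2 and HMGN3 carry that uncertainty too. Adding the counts of the 147 named rows, which lack HMGB1P6, to the parents changed the sign of none of the 45 ratios.

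Genes listed as HMG-box relatives were mostly read. Of 18 relatives, 15 reached 1 CPM in every library, with a median of 72.1 CPM over the 18. SSRP1, the HMG-box subunit of the FACT histone chaperone, took most in CPM, at 318 ± 15.9 CPM, followed by BBX at 179 ± 10.6 CPM. TFAM, which packages mitochondrial DNA, had 130.4 ± 9.86 CPM. TOX was at 1.16 ± 0.249 CPM without reaching 1 CPM in every library, TOX3 had 1 count in all, and HMGB4 was at 0. Of 16 tested relatives 14 varied between libraries, against 59.2% of all genes tested and 77.7% of those at 10 CPM or more.

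The linker histones, which HMGN proteins counteract on the nucleosome, were led in CPM by 2 genes. H1-4 had 455 ± 32.1, H1-2 438 ± 54.4 and H1-10 148 ± 20.7 CPM. Per kilobase of exon H1-2 had 682 ± 84.7 and H1-4 604 ± 42.6 CPM, next to 644 ± 73.7 for HMGA1 and 108 ± 6.71 for HMGN2. The rows stand under older symbols such as HIST1H1E for H1-4. H1-1, H1-3, H1-5 and H1-6 stayed under 1 CPM. H1-2 had 389.9, 504, 461 and 397 CPM in replicates 1 to 4, while summed HMGN levels were 426, 462, 434 and 395 CPM. Replicate 2 was highest for both, as it was for 7 of the 10 HMG genes. The lowest library differed, replicate 1 for H1-2 and replicate 4 for the HMGN sum. H1-2, H1-4 and H1-10 each varied between libraries, as did 77.7% of all genes at 10 CPM or more.

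Receptors through which extracellular HMGB1 signals were sparse. AGER, the receptor for advanced glycation end products, had 0.847 ± 0.198 CPM, and TLR2 had 2 counts in all. TLR9, CXCR4 and its ligand CXCL12, which pairs with HMGB1, were listed at 0 in every library. TLR4 was the exception among the receptors, with 54.4, 48.7, 49.7 and 50.2 CPM. XPO1, which exports HMGB1 from the nucleus, had 379 ± 27.9 CPM, and the heparan sulphate carrier SDC1 261 ± 17.6 CPM. In all 4 of 12 genes in this list reached 1 CPM in every library, BECN1 being the fourth at 62.3 ± 4.83 CPM. Of the 7 tested 4 varied, as did 7 of the 10 tested genes around let-7 and HMGA2, again beside 59.2% of all genes.

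**Figure D5:**
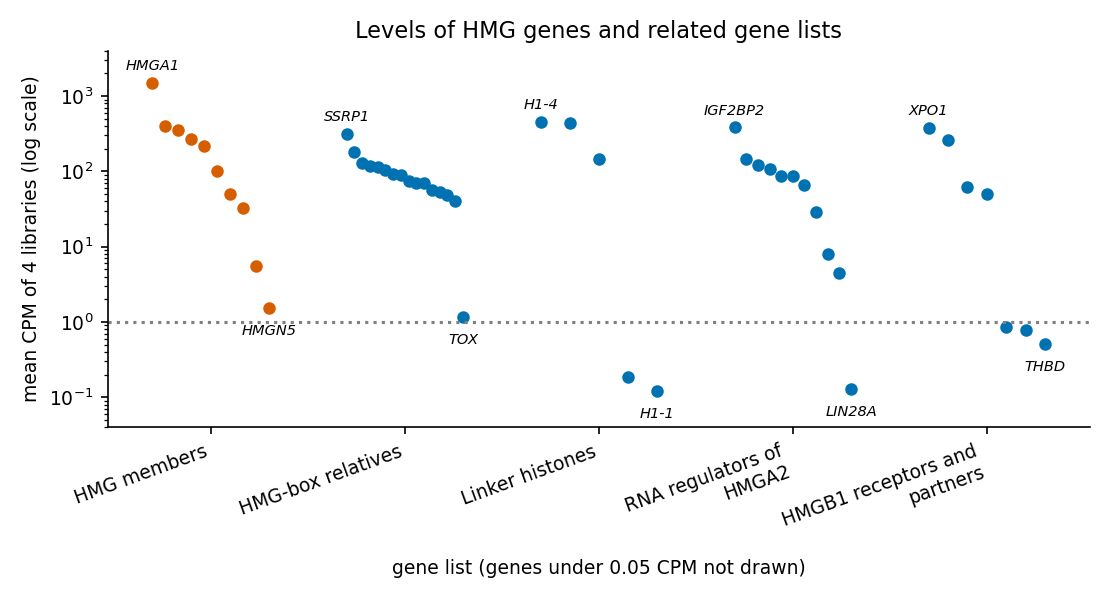
Mean CPM over 4 libraries (log axis) of the HMG genes and of 4 related gene lists, one point per gene shown, highest and lowest drawn gene named, dotted line at 1 CPM. The 9 genes under 0.05 CPM are not drawn. HMGA1 lies above every gene of the other lists.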

How the data were processed

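RNA of 4 HT1080 knockout libraries was depleted of ribosomal RNA and read from both ends, per the labels' protocols. RSEM 1.3.3, Bowtie2 2.5.4, Trimmomatic 0.39, DESeq2 1.46.0 and the build GRCh38 appear, with no role or order, in the submitters' processing notes. Not given in the sources used here: what each did, the annotation release and the strand setting. Expected counts per gene, an estimate that can split reads among similar genes, are what the authors deposited. All 4 sample columns were used and 0 others were left out. The 10 genes, the lists and the tests were chosen with earlier results of these data known. The genes named are all 10, the opposite-strand rows at HMGA2 and HMGN3, the 5 pseudogene rows with most counts, and in each of the 4 related lists at least the 2 highest and the lowest by CPM. Other list genes under 1 CPM, the markers, ENSG00000256083 and RBM22P2 were named after their values were seen. 1 linker histone is not reported here.

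Counts were rounded for tests. CPM used TMM effective sizes (edgeR 4.0.16, R 4.3.3). Genes with a mean of 10 counts or more entered the chi-square test (scipy 1.17.1), with an adjusted p under 0.05 as threshold. Since there is 1 group, no edgeR test between groups was possible. SDs of log2 CPM over all genes used a pseudocount of 0.01. Lengths, positions and transcripts come from GENCODE 29 (GRCh38) and microRNAs from RefSeq (GRCh38.p14). Coding sequences were aligned with Biopython 1.88. The chi-square test was tested on simulated data for the variation between 4 libraries, with 16790 genes of which 50 per size were changed. Its recovery was 56% of those changed 1.2 times, 76% (1.5 times), 96% (2 times) and 100% (4 times). Among the 16590 genes left alone it made 6 calls. The same rates in the 4 sequenced libraries, where 59.2% of all genes tested varied, were not tested. Alternatives changed the scaling (DESeq2 1.42.0 size factors, totals), filter, threshold, gene length, pseudogene counts and each replicate.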

Additional observations from a re-analysis of the deposited data

Results flagged for a closer look

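Of 57 series of 4 library values examined (HMG genes, opposite-strand rows, leading pseudogenes, related genes read at 1 CPM or more, and 5 ratios), 3 had 1 library far from the other 3 by Dixon's criterion at 95%. Chance flags about 1 in 20. In all 3 that library was replicate 4. HMGA2-AS1 was high there, at 36.5 CPM against 13.2 to 13.8 CPM. HMGB3 was low there, at 31.7 CPM against 33.2 to 33.5 CPM, a gap within counting noise by the chi-square test (adjusted p = 0.51). The pseudogene HMGB1P37 was low there, at 0.308 CPM (13 counts) against 0.617 to 0.643 CPM.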

How the results depend on the processing

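The number of HMG genes read was 10 under each scaling and without any 1 replicate, 8 at a threshold of 5 CPM and 9 at 1 CPM per kilobase. The number that varied was 8 under each scaling, without a filter and at an adjusted p under 0.01, while the share of all genes tested went from 59.2% to 34.8% without a filter and 48.4% at 0.01. Leaving out 1 replicate gave 7 to 8, with HMGN3 lost without replicate 1, and 46.8% to 55.9% of all genes. Of the 5 ratios between paralogs, HMGB1 to HMGB2 turned from -0.78 to 0.66 with coding length and to 0.70 without a length. The other 4 kept their sign under all alternatives run. With 4 libraries no exact permutation p can pass 0.05, so these tests show nothing on stability. The pairs with one order numbered 44 to 45 over all alternatives. All 70 alternative values of the genes' mean CPM lay within 1 SD. The pseudogene share stayed between 0.309% and 0.331% without 1 replicate. No paired analysis was possible because there is 1 group. Depth limits HMGN5 (56 to 74 counts) and the rows at 0.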
